A study of Mus musculus with 8 samples.

Results

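The nuclear-encoded subunits of the respiratory chain and ATP synthase were followed in sorted mouse osteoblasts after doxorubicin. They were taken from the count table by symbol: every gene whose name begins as a complex I subunit (Nduf followed by a, b, c, s or v and a number), Sdha to Sdhd, Uqcr, Cox4 to Cox8 or Atp5, pseudogenes left out. The rule found 83 of 21154 genes, with 37 in complex I, 4 in complex II, 8 in complex III, 17 in complex IV and 17 in complex V. No measured level entered the rule. Of the 83 genes, 82 passed the filter on low counts and were among the 15373 genes tested. The gene left untested was Cox6a2, the heart and skeletal muscle form of a complex IV subunit, with 13 counts over the DOX libraries and 1 count over the PBS libraries. Ndufa4 is counted with complex I by its name, although its protein is now regarded as a complex IV component.

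The osteoblasts came from female Col2.3-GFP mice, in which a fragment of the Col1a1 promoter drives green fluorescent protein in cells that make bone matrix. DOX mice were given 4 weekly intravenous injections of doxorubicin at 5 mg/kg, starting at an age of 8 to 10 weeks, and PBS mice were given 4 injections of phosphate-buffered saline. Bone was taken 8 weeks after treatment, digested, and sorted for GFP. All 8 libraries share the reporter, the sex and the sort. The 5 DOX libraries comprise replicates 1 and 2 in batch 1 and replicates 3 to 5 in batch 2, and the 3 PBS libraries comprise replicate 1 in batch 1 and replicates 2 and 3 in batch 2. The labels call the libraries biological replicates and do not say how many mice each holds, so p-values measure the spread between these libraries only. The library titled DOX replicate 1 carries a PBS treatment tag. It was treated as DOX by its title, and values with it counted as PBS are given where they differ.

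Doxorubicin is an anthracycline that damages DNA, and its toxicity to heart muscle is linked to mitochondria. The respiratory chain passes electrons from NADH (complex I) and succinate (complex II) through complex III to oxygen at complex IV, and complex V uses the resulting proton gradient to make ATP. Nearly all subunits are encoded in the nucleus, with a small set made from mitochondrial DNA, so each complex other than complex II needs both genomes. Osteoblasts use glycolysis together with respiration to meet the cost of collagen synthesis.

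Library totals lay between 39419027 and 44299591 counts. The 9 osteoblast markers took 25.6% to 42.8% of counts in a library, and Col1a1 and Col1a2 alone took 23.2%, 35.5%, 33.6%, 26.0% and 28.0% in DOX replicates 1 to 5 and 19.1%, 39.5% and 38.7% in PBS replicates 1 to 3. Chondrocyte markers took 0.225% to 0.570% and osteoclast markers 0.0224% to 0.0465% of counts. Erythroid markers took 0.0129% and 0.00321% of counts in DOX replicates 1 and 2 and 0.0185% in PBS replicate 1, with at most 0.000858% in a batch 2 library. The adipocyte, B cell, endothelial, macrophage, neutrophil and skeletal muscle lists each stayed at or under 0.00264%. DOX replicate 1 and PBS replicate 1, both of batch 1, had the lowest collagen shares of their groups. PBS replicate 1 (19.1%) lay far below the other PBS libraries, and DOX replicate 1 (23.2%) lay near DOX replicate 4 (26.0%). Results that rest on these replicates 1 are given without them as well.

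The respiratory chain subunits together held 1.07%, 0.612%, 0.649%, 0.879% and 0.794% of all counts in DOX replicates 1 to 5, against 0.947%, 0.520% and 0.543% in PBS replicates 1 to 3. The mean share was 0.801% ± 0.185 in DOX libraries and 0.670% ± 0.240 in PBS libraries (SD, n = 5 and 3). The groups overlapped: PBS replicate 1 lay above every DOX library except DOX replicate 1. The same libraries that held a large share of subunit counts held a small share of collagen counts. The part of the collagen share in the subunit share was not tested. In bulk RNA, a change in the number of cells of a type and a change in RNA per cell cannot be told apart.

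**Figure D1:**
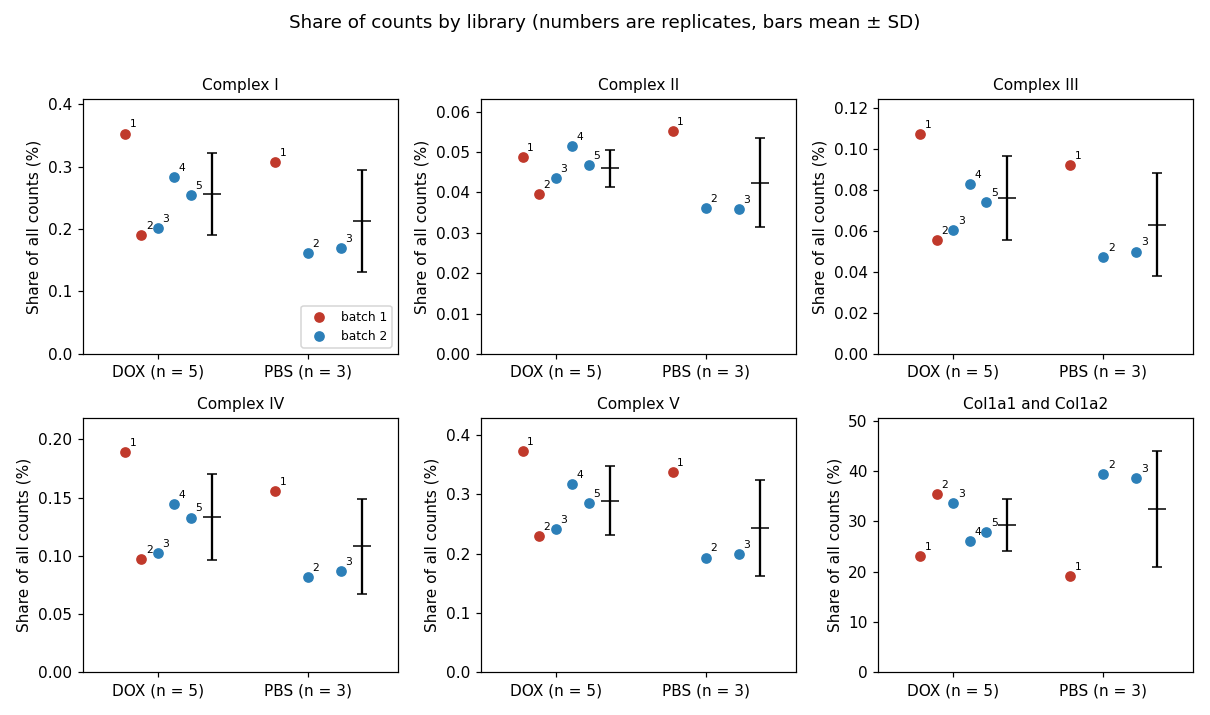
Share of all counts (%) taken by the subunits of each complex and by the genes Col1a1 and Col1a2, by library, with DOX left of PBS. Points are libraries numbered by replicate and coloured by batch, and bars are the mean and SD over 5 DOX or 3 PBS libraries. DOX replicate 1 and then PBS replicate 1 are the highest libraries in the panels of complexes I, III, IV and V, and both lie low in the collagen panel (23.2% and 19.1%).

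Levels within the family differed widely when set per length of transcript. The highest mean levels over the 8 libraries, in CPM per kilobase, were those of Atp5e (371), the F1 epsilon subunit, Cox6b1 (356) and Cox6a1 (350), small complex IV subunits, Atp5b (326), the catalytic beta subunit of ATP synthase, and Cox4i1 (293), the regulatory subunit IV. Among widely used subunits the lowest were Ndufa10 at 20.5 and Ndufs1, the largest iron-sulfur subunit of complex I, at 23.8 CPM per kilobase. The median was 162 for complex V, 119 for complex III, 94.2 for complex IV, 86.1 for complex II and 76.9 for complex I. Atp5a1, the alpha subunit beside beta in F1, stood at 156 CPM per kilobase, below Atp5b. These values depend on annotated transcript lengths from a build other than that of the counts (2471 nt for Atp5a1 and 1916 nt for Atp5b).

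The tissue-specific forms of complex IV subunits were at very low levels. Over the DOX and the PBS libraries there were 456 and 237 counts of Cox4i2, the lung form of subunit IV, 100 and 76 of Cox6b2, the testis form, and 84 and 42 of Cox6c2, a gene copy of Cox6c. Cox7a1, a heart and skeletal muscle form, had 62 counts in DOX libraries and 28 in PBS libraries, and Cox8b, another muscle form, had 71 in DOX libraries and 21 in PBS libraries. The mean CPM of the common partner was larger by a factor of 109 for the pair Cox4i1 and Cox4i2 and of 4663 for the pair Cox6a1 and Cox6a2, with the other pairs between 257 and 409. The muscle forms at this level stand beside 5 skeletal muscle markers that took at most 0.000364% of counts in a library.

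The upstream sequence of the family was read as a description of what its genes share outside the name rule. The transcription factors NRF1 and GABP are known to act at promoters of many subunit genes; GABP is an ETS factor, and Gabpa encodes its DNA-binding subunit. RefSeq promoter windows on build GRCm38.p6 matched 68 of the 83 genes, as 73 windows, and the 250 bases before each start were searched on both strands. The NRF1 motif (GCGCA, any base, then GCGC) stood in 14 of the 73 windows (19.2%), against 3.74% of all 32851 windows and 7.57% of the 13979 windows of tested genes. The ETS motif CCGGAAG stood in 16.4% of the members' windows, 6.91% of all windows and 12.6% of those of tested genes. The pentamer CCAAT was found in 41.1%, 33.9% and 35.1%, and the SP1 motif GGGCGG in 32.9%, 32.7% and 56.0%. The windows were not matched on base composition, and a match is a description, not a binding site.

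The windows with the most NRF1 matches belonged to Sdha, the flavoprotein of complex II (chr13:74350241-74350490, minus strand), and Ndufb4, a supernumerary subunit of complex I (chr16:37654369-37654618, minus strand), with 3 each. Atp5h, a peripheral stalk subunit of ATP synthase (chr11:115419920-115420169, minus strand), held 1 NRF1 and 1 ETS match, and Cox7a1 (chr7:30183921-30184170, plus strand) held none. They are shown 5′ to 3′ on the strand of the gene, with the matched letters of either motif in capitals.
Sdha: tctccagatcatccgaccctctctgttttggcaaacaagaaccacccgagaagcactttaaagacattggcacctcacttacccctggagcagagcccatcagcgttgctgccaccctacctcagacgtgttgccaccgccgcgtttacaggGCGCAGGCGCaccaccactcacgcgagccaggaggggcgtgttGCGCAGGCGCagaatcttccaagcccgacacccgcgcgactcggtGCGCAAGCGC
Ndufb4: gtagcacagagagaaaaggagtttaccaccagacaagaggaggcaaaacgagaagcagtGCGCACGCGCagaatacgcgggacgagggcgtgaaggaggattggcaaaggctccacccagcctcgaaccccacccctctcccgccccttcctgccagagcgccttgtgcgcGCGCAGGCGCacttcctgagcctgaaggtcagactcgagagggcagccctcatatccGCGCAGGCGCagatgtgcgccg
Atp5h: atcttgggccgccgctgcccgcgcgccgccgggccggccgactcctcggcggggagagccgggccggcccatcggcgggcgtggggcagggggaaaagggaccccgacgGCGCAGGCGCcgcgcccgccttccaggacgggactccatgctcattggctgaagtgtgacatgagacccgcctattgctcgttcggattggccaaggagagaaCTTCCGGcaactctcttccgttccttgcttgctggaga
Cox7a1: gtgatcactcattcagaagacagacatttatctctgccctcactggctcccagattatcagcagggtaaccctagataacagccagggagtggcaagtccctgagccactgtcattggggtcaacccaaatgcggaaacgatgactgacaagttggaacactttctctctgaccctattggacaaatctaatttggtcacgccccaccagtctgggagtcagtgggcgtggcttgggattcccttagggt
The log2 fold change between DOX and PBS had a median of 0.19 for the 13 tested genes with an NRF1 match and of 0.20 for the 55 with a window and no match. For the ETS motif the medians were 0.23 with a match (12 genes) and 0.19 without (56 genes).

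The comparison of DOX with PBS asks what remained changed in osteoblasts 8 weeks after the drug. In edgeR's quasi-likelihood test with batch as a term, none of the 82 subunits passed an adjusted p of 0.05, and the smallest adjusted p among them was 0.995; of all 15373 genes tested, 0 (0%) passed. None of the 82 had an unadjusted p under 0.05, where 1.98% of all genes did so as higher and 1.74% as lower; the smallest was 0.0532, for Ndufv1. Limma-voom with quality weights also called none of the subunits. At an unadjusted p under 0.05 it had 34 of 82 subunits and 1565 of 15373 genes. DESeq2 called none of the 82 subunits and 26 of the 21139 genes it tested (0.123%). At an unadjusted p under 0.05 DESeq2 had 1 of 82 subunits and 902 of 21139 genes.

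The small differences pointed mostly the same way. The fitted log2 fold change (positive where DOX is higher) was above 0 for 80 of 82 subunits, where 53% of all genes tested lay above 0. Its median was 0.20, against 0.02 over all genes tested, and single subunits ran between -0.20 and 0.93. The 2 below 0 were Sdha and Cox6b2. Subunits share libraries and are not replicates, so a count of directions among them carries no error of its own. The median was 0.32 without PBS replicate 1, 0.15 without DOX replicate 1 and 0.32 without the replicates 1 of both groups. It was 0.08 with the library titled DOX replicate 1 counted as PBS (67 of 82 above 0). Limma-voom in place of edgeR gave a median of 0.27, with 80 of 82 above 0. Limma-voom after a trend with transcript length and GC content was removed from each library gave 0.03, with 49 of 82 above 0, and the median of all genes moved to -0.08. With the collagen share as a further term the median was 0.13.

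**Figure D2:**
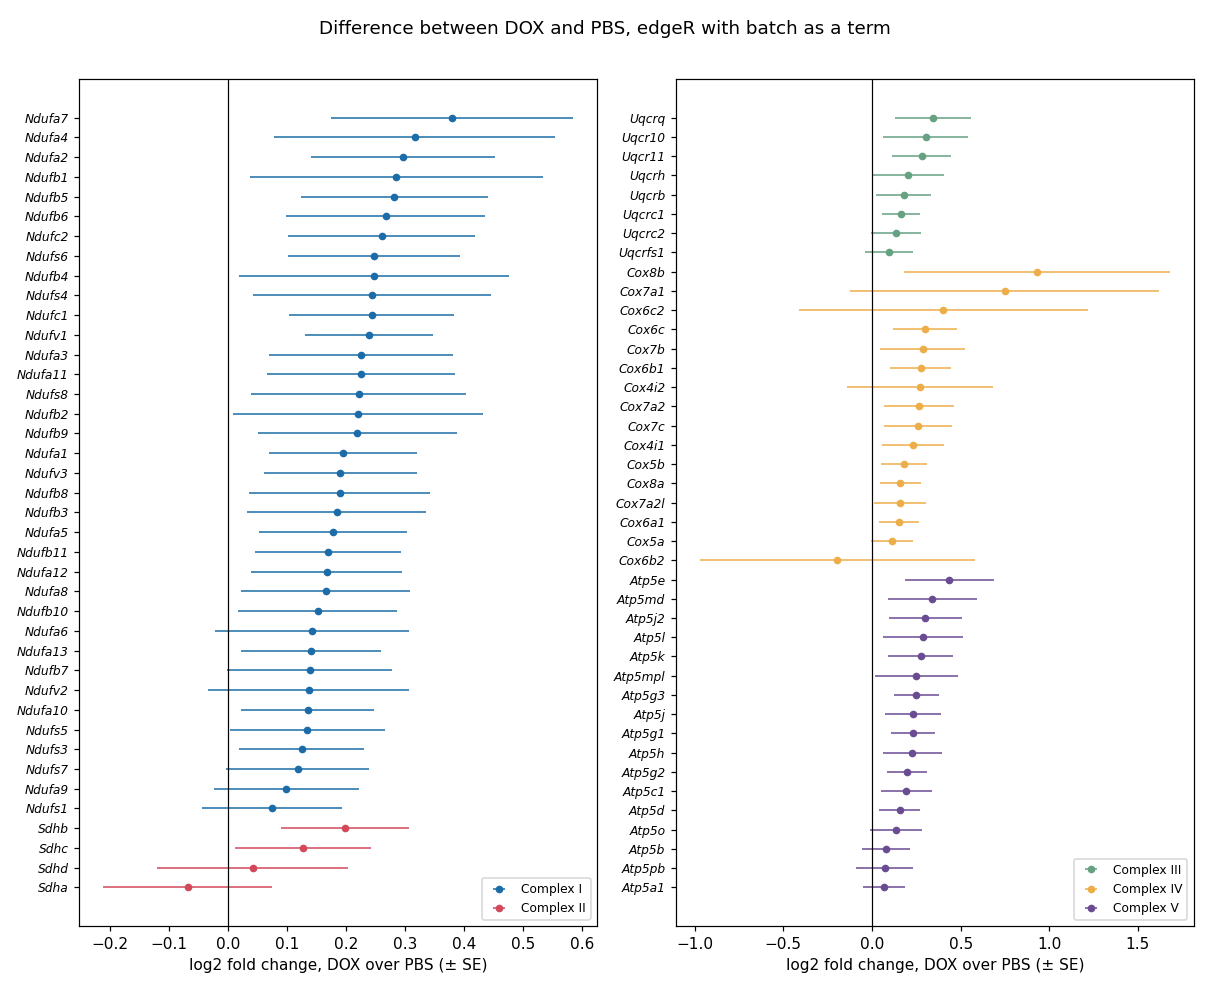
Log2 fold change of DOX over PBS with its standard error for tested subunits, by complex, from edgeR with batch as a term over 5 DOX and 3 PBS libraries. Points lie right of 0 apart from Sdha and Cox6b2, and none passed an adjusted p of 0.05; the wide bars are the rare complex IV isoforms.

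Complex I, the entry point for NADH, had all 37 subunits above 0, with a median of 0.19. Its 30 supernumerary subunits, which surround the core and serve assembly and stability, had a median of 0.21, and the 7 nuclear core subunits, which carry the flavin and iron-sulfur clusters and the quinone site, a median of 0.12. Ndufv1, which binds the flavin that accepts electrons from NADH, had 52.1, 56.8, 62.4, 64.2 and 69.5 CPM in DOX replicates 1 to 5, against 49.5, 51.3 and 55.2 CPM in PBS replicates 1 to 3. Its lowest DOX library lay among the PBS libraries, and its log2 fold change was 0.24 ± 0.11 (SE; 95% interval -0.00 to 0.48; adjusted p = 0.995, edgeR). Ndufa7, a supernumerary subunit, had the largest value of the complex at 0.38 ± 0.21, with 111, 58.3, 67.5, 87.1 and 79.4 CPM in DOX libraries and 79.4, 50.8 and 56.2 CPM in PBS libraries. PBS replicate 1 stood at the level of DOX replicate 5 for this gene, so the groups overlapped.

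Ndufs3, a core subunit of the quinone-binding arm, was the sole subunit with every DOX library above every PBS library, a pattern shown by 1.24% of all genes tested. Its levels were 45.2, 43.9, 46.4, 52.3 and 45.7 CPM in DOX libraries and 41.7, 43.8 and 43.7 CPM in PBS libraries. The gap between the nearest libraries was small beside the spread, and the log2 fold change was 0.12 ± 0.11. Among the other core subunits, Ndufs1 stood at 0.07 ± 0.12, Ndufs7 at 0.12 ± 0.12, Ndufv2 at 0.14 ± 0.17 and Ndufs8 at 0.22 ± 0.18.

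Complex II, succinate dehydrogenase, is the complex made by nuclear genes alone and also a step of the citric acid cycle. Its median was 0.08, with 3 of 4 subunits above 0. Sdha, which oxidises succinate, had 109, 159, 169, 159 and 147 CPM in DOX libraries and 125, 177 and 177 CPM in PBS libraries. The lowest library of each group was its replicate 1, and the log2 fold change was -0.07 ± 0.14. Sdhb, the iron-sulfur subunit, had 105, 88.6, 103, 102 and 103 CPM in DOX libraries, against 87.4, 85.4 and 90.3 CPM in PBS libraries. Of the DOX libraries only replicate 2 lay within the PBS range, and the log2 fold change was 0.20 ± 0.11. The membrane anchors Sdhc and Sdhd, which hold the quinone site, had log2 fold changes of 0.13 ± 0.12 and 0.04 ± 0.16.

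Complex III, the cytochrome bc1 complex, had 8 of 8 subunits above 0 and a median of 0.19. Uqcrq, a small membrane subunit, had 96.1, 47.7, 54.2, 74.2 and 62.1 CPM in DOX libraries and 65.6, 42.8 and 49.1 CPM in PBS libraries, for a log2 fold change of 0.34 ± 0.21. Uqcr11 had 74.9, 46.7, 44.4, 58.2 and 54.7 CPM in DOX libraries against 54.6, 39.4 and 42.8 CPM in PBS libraries, with the smallest unadjusted p of the complex (0.124) and a log2 fold change of 0.28 ± 0.17. For both genes PBS replicate 1 lay inside the DOX range. The core members were Uqcrc1 at 0.16 ± 0.11, Uqcrc2 at 0.14 ± 0.14 and Uqcrfs1, the Rieske iron-sulfur protein, at 0.09 ± 0.13. The medians of the 5 small and the 3 core subunits were 0.28 and 0.14.

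Complex IV, cytochrome c oxidase, had 15 of 16 tested genes above 0 and a median of 0.26. Among its 10 widely expressed subunits all were above 0, with a median of 0.24. Cox4i1 had 268, 186, 192, 261 and 248 CPM in DOX libraries and 243, 166 and 183 CPM in PBS libraries, with a log2 fold change of 0.23 ± 0.17. Its levels split each group in a high and a low set of libraries, so that the groups overlapped. Cox6c, a small supernumerary subunit, had the smallest unadjusted p of the complex (0.129) with 206, 118, 125, 167 and 150 CPM in DOX libraries and 140, 114 and 117 CPM in PBS libraries (log2 fold change 0.30 ± 0.18). The subunits Cox5a and Cox5b stood at 0.11 ± 0.12 and 0.18 ± 0.13, and Cox6a1, Cox6b1, Cox7a2 and Cox8a at 0.15, 0.27, 0.27 and 0.16. Cox7a2l, a factor that joins complexes III and IV into supercomplexes, stood at 0.16 ± 0.15.

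The largest and the lowest fold change of the family both belonged to rare complex IV isoforms, with errors to match. Cox8b had 0.465, 0.124, 0.320, 0.300 and 0.410 CPM in DOX libraries and 0.131, 0.191 and 0.198 CPM in PBS libraries, for a log2 fold change of 0.93 ± 0.75 (95% interval -0.74 to 2.60). Cox6b2 stood at -0.20 ± 0.78. Cox4i2 (0.27 ± 0.41), Cox6c2 (0.40 ± 0.82) and Cox7a1 (0.75 ± 0.87) had intervals that include 0. No difference in these forms was detectable at this depth.

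Complex V, ATP synthase, had 17 of 17 subunits above 0 and a median of 0.23. Atp5e, which sits in the central stalk of F1, had 267, 117, 122, 192 and 169 CPM in DOX libraries and 166, 105 and 113 CPM in PBS libraries, for a log2 fold change of 0.44 ± 0.25. Every DOX library lay above PBS replicates 2 and 3, and DOX replicates 2 and 3 lay below PBS replicate 1. The 5 small membrane subunits (Atp5j2, Atp5k, Atp5l, Atp5md and Atp5mpl) had a median of 0.29. The 3 genes for subunit c, which forms the rotating ring, were close together: Atp5g3 at 0.25 ± 0.13 with the smallest unadjusted p of the complex (0.0782), Atp5g1 at 0.23 ± 0.12 and Atp5g2 at 0.20 ± 0.11. The peripheral stalk subunits (Atp5h, Atp5j, Atp5o and Atp5pb) had a median of 0.18.

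The large F1 subunits had the values nearest 0 together with the stalk subunit Atp5pb (0.07 ± 0.16). Atp5a1 had 319, 400, 420, 409 and 405 CPM in DOX libraries and 328, 406 and 398 CPM in PBS libraries, and a log2 fold change of 0.07 ± 0.12. Atp5b had 464, 649, 702, 701 and 663 CPM in DOX libraries and 547, 621 and 655 CPM in PBS libraries, and a log2 fold change of 0.08 ± 0.14. For both genes the lowest library was replicate 1 of DOX, the library with the highest levels of most other subunits. Atp5c1, the gamma subunit that turns within F1, stood at 0.19 ± 0.14.

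**Figure D3:**
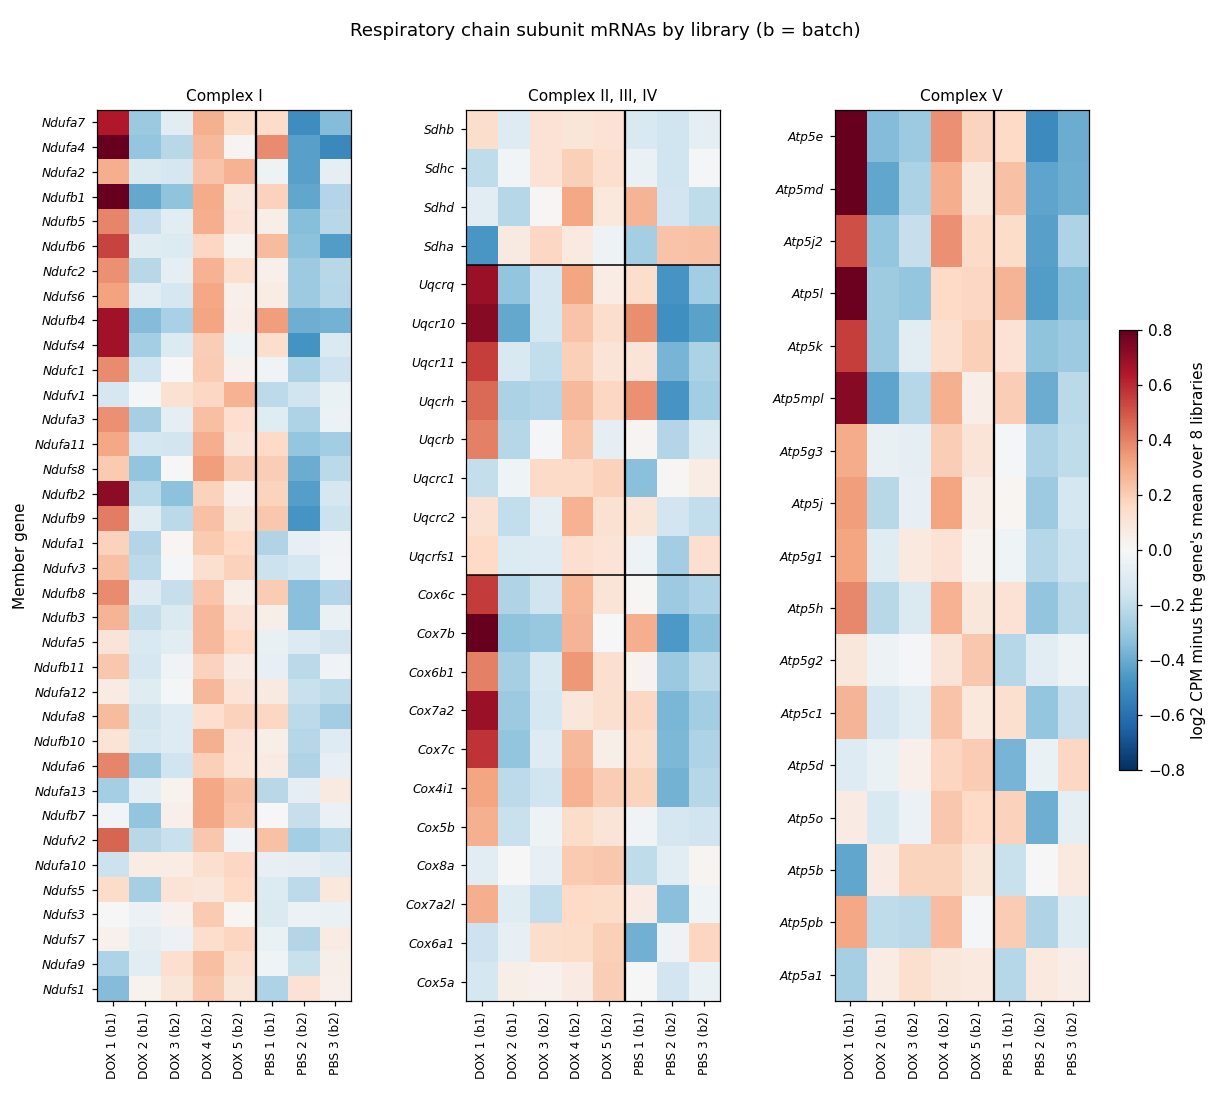
Level of each subunit in each library as log2 CPM minus the gene's mean over 8 libraries, with DOX libraries left of the vertical line and PBS libraries right of it (b is the batch, and colours end at 0.8 in either direction). Within a complex, genes run from the largest fold change at the top to the lowest; tissue isoforms are left out. DOX replicate 1 is the reddest column and PBS replicate 2 the bluest for most genes. For some genes, Sdha, Atp5a1, Atp5b and Ndufs1 among them, DOX replicate 1 is instead the bluest.

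The highest of the 8 libraries was DOX replicate 1 for 51 of the 82 tested subunits, DOX replicate 4 for 15 and DOX replicate 5 for 10. The lowest was PBS replicate 2 for 46 subunits and DOX replicate 2 for 11. No subunit had its highest level in DOX replicate 2 or in PBS replicate 2. The spread over libraries differed between members: among the tested subunits the SD of log2 CPM was smallest for Ndufs3 and largest for Cox6b2, and its median was 0.23 over them against 0.34 over all genes tested.

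Fold changes of the members were lower at greater transcript length. Over the 82 tested subunits, the correlation across genes of the log2 fold change with log2 annotated length was -0.49 (Pearson) and -0.57 (Spearman); the genes share libraries, and isoforms at very low counts are among them. The 57 subunits under 1000 nt, isoforms aside, had a median of 0.22, and the 11 of 1400 nt or more had a median of 0.08. DOX replicate 1 was the highest library for 44 of the 62 tested subunits under 1000 nt, isoforms included, and the lowest for 6 of the 11 long ones. Mean log2 CPM of the short class was 6.51 in DOX replicate 1 and 5.94 to 6.37 in the other DOX libraries, against 6.21 in PBS replicate 1 and 5.85 and 5.97 in PBS replicates 2 and 3. Mean log2 CPM of the long class was 6.72 in DOX replicate 1 and 6.79 to 7.01 in the other DOX libraries, against 6.72 in PBS replicate 1 and 6.78 and 6.84 in PBS replicates 2 and 3. In each group, replicate 1, the library with the lowest collagen share, was highest for the short class and lowest for the long class. The role classes also differed in length. Median length was 611 nt for the supernumerary and 1046 nt for the core subunits of complex I. It was 445 nt for the small and 1653 nt for the core subunits of complex III. In both complexes the class with the lower median fold change was the longer one. The part of transcript length in the DOX values was not tested beyond the corrected setting above.

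The other genes tested also had lower values at greater length. Under 600 nt, the 36 subunits had a median log2 fold change of 0.25 and the 877 other genes one of 0.21, with 75.1% of them above 0. From 600 to under 800 nt, the medians were 0.22 for 18 subunits and 0.15 for 785 other genes, and from 800 to under 1000 nt 0.17 for 8 subunits and 0.12 for 748 other genes. From 1000 to under 1500 nt they were 0.15 for 10 subunits and 0.10 for 1812 other genes, and from 1500 to under 2500 nt 0.11 for 8 subunits and 0.04 for 3842 other genes. The 3053 other genes of 4000 nt or more had a median of -0.10. In each bin up to 2500 nt the median of the subunits lay above that of the other genes. The medians of the other genes fell from 0.21 in the shortest bin to -0.10 in the longest. Among genes of at least 20 CPM under 600 nt, 32 of 32 subunits and 84.1% of 157 other genes were above 0, with medians of 0.25 and 0.18.

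**Figure D4:**
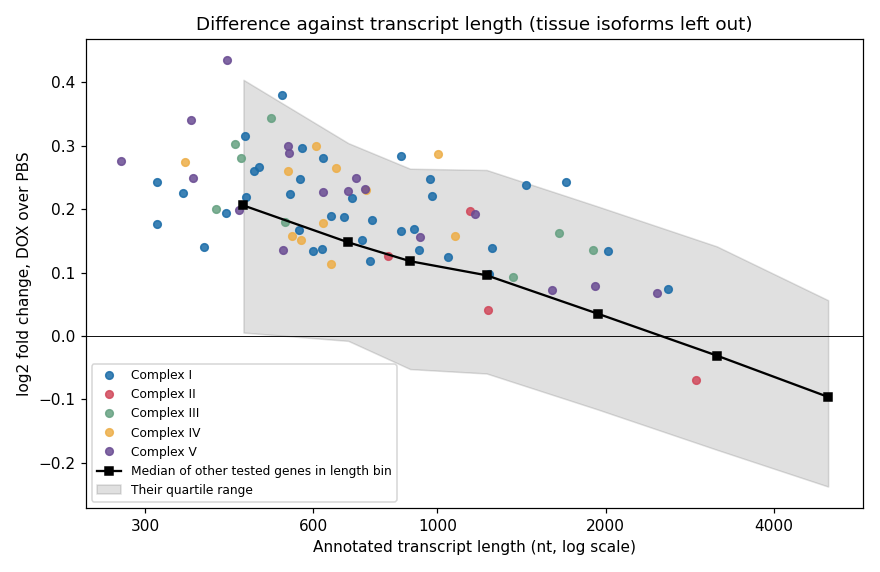
Log2 fold change of DOX over PBS against annotated transcript length (nt, log axis) for the tested subunits other than tissue isoforms, coloured by complex. Black squares join the medians of the other tested genes in 7 length bins and the grey band spans their quartiles; the medians of the other genes lie between 0.21 in the shortest and -0.10 in the longest bin, and most subunits lie above that line.

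The comparison was also made within each batch. In batch 2, with 3 DOX and 2 PBS libraries, the median difference in log2 CPM was 0.31 and 81 of 82 subunits were higher in DOX, where 51.7% of all genes were. In batch 1, with 2 DOX libraries and 1 PBS library, the median was 0.02 and 45 of 82 subunits were higher in DOX, where 49.9% of all genes were. In batch 2 all 3 DOX libraries lay above both PBS libraries for 58 of 82 subunits, a pattern shown by 16% of all genes. Other genes with short transcripts were also higher in DOX in batch 2. Under 600 nt the median batch 2 difference was 0.37 for subunits and 0.28 for other genes. From 600 to under 800 nt the medians were 0.31 and 0.23, and from 800 to under 1000 nt 0.28 and 0.19. Other genes of 4000 nt or more had a median of -0.18. In batch 2 the PBS libraries had the highest collagen shares of the series (39.5% and 38.7%) and the DOX libraries had 33.6%, 26.0% and 28.0%. The part of that difference in the subunit levels was not tested within the batch.

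By complex, the batch 2 and batch 1 medians were 0.29 and 0.02 for complex I, 0.23 and 0.01 for complex II, 0.31 and 0.05 for complex III, 0.36 and 0.01 for complex IV and 0.32 and 0.00 for complex V. Sdhd, a membrane anchor, had 108, 134 and 115 CPM in the batch 2 DOX libraries and 97 and 93.7 CPM in the PBS libraries of that batch. In batch 1 it had 101 and 92.1 CPM in DOX libraries and 130 CPM in the PBS library. All DOX libraries of batch 2 thus lay above the PBS libraries beside them, and both of batch 1 lay below theirs. Ndufs8, a core subunit with iron-sulfur clusters, had 51.7, 65.5 and 59.6 CPM in DOX against 39.4 and 44.6 CPM in PBS in batch 2, and 59.9 and 41.7 CPM in DOX against 59.5 CPM in PBS in batch 1.

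The difference between the batches was tested as an interaction term (the batch 2 difference minus the batch 1 difference). None of the 82 subunits passed an adjusted p of 0.05 (0 of 15373 genes, 0%), and the smallest adjusted p among them was 0.308, for Sdhd. Sdhd (0.75 on the log2 scale, unadjusted p = 0.0109) and Ndufs8 (0.71, 0.0428) were the 2 with an unadjusted p under 0.05, where 11.7% of all genes had one. The term was above 0 for 71 of 82 subunits, with a median of 0.27, where 48.8% of all genes lay above 0. Batch 1 holds a single PBS library, so the term rests on PBS replicate 1. With the collagen share as a further term its median over the subunits turned to -0.51, with DOX replicate 1 counted as PBS it was 0.68, without DOX replicate 1 it was 0.59, and without DOX replicate 2 it was 0.05.

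**Figure D5:**
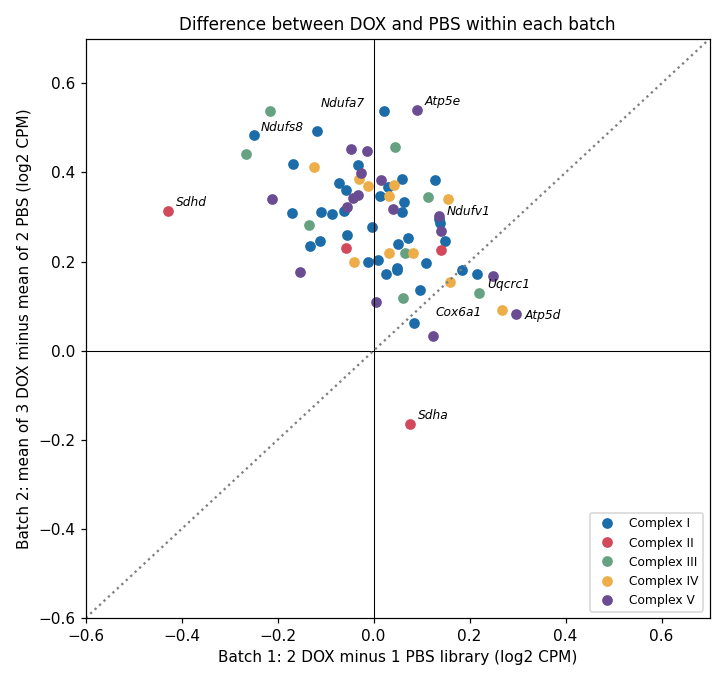
Difference in log2 CPM between DOX and PBS within batch 2 (y axis, mean of 3 DOX minus mean of 2 PBS libraries) and within batch 1 (x axis, 2 DOX libraries minus 1 PBS library) for each tested subunit other than tissue isoforms, with the diagonal of equality dotted. Points spread around 0 on the x axis and lie above 0 on the y axis, apart from Sdha.

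Batch 2 was also set against batch 1 in the main model. None of the subunits passed an adjusted p of 0.05, where 14 genes (0.0911%) did, 9 of them (0.0585%) as lower in batch 2. The median log2 difference of batch 2 over batch 1 was -0.10, with 55 of 82 subunits lower in batch 2 (51.6% of all genes were) and 9 at an unadjusted p under 0.05 (14.6% of all genes). That median was 0.10 with the collagen share as a further term and 0.02 without PBS replicate 1. Of the 57 short subunits 45 were lower in batch 2, and of the 11 long ones 3 were. With all 8 libraries the batch term was tested on 15373 genes, 82 subunits among them. Without DOX replicate 2 it called 938 genes, 13 subunits among them. The number of genes tested in that fit is not given here. Batch 1 then holds only DOX replicate 1 and PBS replicate 1, the libraries with the lowest collagen shares of their groups. A difference between the batches and a trait of that pair cannot be told apart in this fit. Of these, 12 were lower in batch 2, with Ndufa4 at -0.82, Cox7b at -0.77 and Uqcr10 at -0.74, and Sdha was higher at 0.52 (adjusted p 0.0221, 0.0297, 0.0231 and 0.0321 by edgeR).

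The subunits made from mitochondrial DNA, which pair with the nuclear ones in complexes I, III, IV and V, had a median log2 fold change of 0.24 over 11 tested genes, all above 0 and none called. Their summed share of counts was 1.21%, 0.451%, 0.466%, 0.858% and 0.574% in DOX libraries, against 0.864%, 0.409% and 0.441% in PBS libraries. By share, the 8 libraries stood in the same order as for the nuclear subunits, with DOX replicate 1 highest. In summed CPM the orders differed. The lowest library there was PBS replicate 2 for the nuclear subunits (6279 CPM) and DOX replicate 2 for the mitochondrial ones (4833 CPM). mt-Cytb, the core of complex III, had 3388, 1725, 1897, 3103 and 2051 CPM in DOX libraries and 2449, 1846 and 2030 CPM in PBS libraries (log2 fold change 0.20 ± 0.24). mt-Co2, which receives electrons from cytochrome c, was counted at 0.436 to 1.37 CPM in any library, far under mt-Co1 at 1009 to 2273 CPM. The sources used here do not say how reads that match several places were counted, so levels of these genes are uncertain.

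Assembly factors were measured at lower levels than the subunits, and none of them was called. Of 14 complex I factors, 12 were above 0, with a median of 0.06. The smallest p among them, after which it is named here, was that of Ndufaf4, a complex I assembly factor, with 18.3, 15.6, 13.9, 14.2 and 16.1 CPM in DOX libraries and 24.8, 14.5 and 20.9 CPM in PBS libraries, for a log2 fold change of -0.37 ± 0.16 (unadjusted p = 0.0395, adjusted p = 0.995, edgeR). PBS replicate 2 lay within the DOX range. For complex II 3 of 4 factors were above 0, for complex III 3 of 6, for complex IV 9 of 18 with a median of 0.03, and for complex V 4 of 4 with a median of 0.17. The 4 further parts of the chain outside the name rule, Cycs (cytochrome c), Cyc1 (cytochrome c1), Ndufab1 (an acyl carrier protein) and Ndufa4l2, stood at 0.06 ± 0.11, 0.08 ± 0.11, 0.01 ± 0.14 and 0.32 ± 0.34.

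Of 12 regulators of mitochondrial genes, 5 were above 0 (41.7%, against 53% of all genes tested), with a median of -0.04, and none was called. Their median transcript length was 2683.5 nt. The other genes tested from 2500 to under 4000 nt had a median of -0.03, with 44.2% above 0. Gabpa, named here for the smallest p among them, had 38.1, 48.6, 54.9, 40.5 and 48.8 CPM in DOX libraries, against 57.2, 55.5 and 60.7 CPM in PBS libraries. All DOX libraries lay below every PBS library, a pattern shown by 1.19% of all genes tested, and the log2 fold change was -0.32 ± 0.14 (unadjusted p = 0.0412, adjusted p = 0.995, edgeR). Nrf1 stood at -0.11 ± 0.14, and Ppargc1a, the coactivator of mitochondrial biogenesis, at -0.80 ± 0.55 with levels of 0.459 to 1.74 CPM in DOX libraries and 0.920 to 1.91 CPM in PBS libraries. Tfam, which packages mitochondrial DNA, stood at 0.12 ± 0.14.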

How the data were processed

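Polyadenylated RNA of sorted osteoblasts was amplified as full-length cDNA with a kit that does not mark strand, per the labels' protocols. For 21154 gene symbols the deposited table gives raw read counts, with 8 library columns, all used. The submitters' processing notes name featureCounts 2.0.1, STAR 2.7.9a, Trim Galore 0.6.6, SAMtools 1.17, MultiQC 1.7, FastQC 0.11.5 and build GRCm39. The sources used here do not state the annotation, the strand setting or the handling of multi-mapping reads. Without strand, reads of overlapping genes cannot be told apart, and subunit genes with processed pseudogenes elsewhere in the genome are uncertain. The smallest gene total was 10 counts. Totals of 39419027 to 44299591 counts set the precision.

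The main test was that of edgeR 4.0.16 under R 4.3.3 (quasi-likelihood test, TMM, filterByExpr, batch and group as terms, two-sided, Benjamini-Hochberg over 15373 genes, threshold 0.05), with limma 3.58.1 and DESeq2 1.42.0 as alternatives. CPM values use TMM-adjusted totals, and log2 CPM carries a prior count of 2. The same fit served the batch term, and an interaction term was fitted separately. The procedure was tested on simulated data with no batch effect and with changes larger than the subunits' median difference. That run therefore cannot show how well differences of the subunits' size are found. Transcript lengths are the median protein-coding length per gene in a GENCODE annotation of GRCm38, a build other than that of the counts, and were used as lengths only; 83 of 83 members and 99.0% of tested genes had one. Plots were made in matplotlib 3.10.9 (Python 3.11.15).

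The members and gene lists were chosen with earlier results of these data known. Genes named singly are core subunits, tissue isoforms with their partners, and in each complex the highest and lowest fold change and smallest p. Ndufs3 and Cox6b2 are also named for the smallest and largest SD among the tested subunits. One subunit is counted in the totals and is not reported singly here. No p-value was computed over the list. Other scalings, filters, tools, terms and left-out libraries were tried as alternatives.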

Additional observations from a re-analysis of the deposited data

Results flagged for a closer look

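Among 41 groups of 5 DOX libraries examined for a library far from the others (the named subunits and the summed shares), 3 met the criterion that the gap of an end library to its neighbour, divided by the range, exceeds 0.71; chance gives about 1 in 20. For Sdhb the ratio was 0.808, with DOX replicate 2 low at 88.6 CPM and the other DOX libraries at 102 to 105 CPM. For Atp5a1 it was 0.807, with DOX replicate 1 low at 319 CPM and the others at 400 to 420 CPM. For Atp5b it was 0.777, with DOX replicate 1 low at 464 CPM and the others at 649 to 702 CPM. In DOX replicate 1 the sum over all subunits was the highest of the DOX libraries (8530 CPM, against 6554 to 8415 CPM in the others).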

How the results depend on the processing

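No alternative called a subunit in the DOX comparison or in the interaction, and in the DOX comparison all genes called stayed at 0 except under DESeq2 (26). The median log2 fold change of the subunits was above 0 in every alternative run, between 0.03 (limma-voom with the length and GC trend removed) and 0.32 (without PBS replicate 1), and the subunits above 0 numbered 49 by limma-voom with that trend removed, 80 by limma-voom without its removal, and 67 to 81 over all other alternatives. Leaving out 1 library at a time gave medians of 0.15 to 0.32. The median of complex II was 0.20 by voom, 0.23 in batch 2 alone, 0.23 without the replicates 1 of both groups and 0.00561 to 0.24 without single libraries, and lay below 0 with the replicate block (-0.0186) and by limma-voom with the length and GC trend removed (-0.0207).

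Leaving out single libraries moved the log2 fold change of some named subunits across 0, with ranges of -0.0674 to 0.33 for Sdhd, -0.0162 to 0.20 for Uqcrfs1, -0.0679 to 0.96 for Cox6c2, -0.68 to 0.45 for Cox6b2 and -0.0813 to 0.77 for Cox4i2. Cox6b2 was also above 0 in batch 2 alone (0.45) and without the replicates 1 of both groups (0.45). With DOX replicate 1 counted as PBS, Ndufv2 (-0.033), Cox7a2 (-0.0235) and Cox6c2 (-0.20) were below 0 and Sdha above it (0.0547). With the collagen share as a term, Sdhd (-0.0289) and Cox6c2 (-0.0789) were below 0. By limma-voom with the length and GC trend removed, 13 of 35 named subunits changed sign relative to edgeR (0 of 35 did by limma-voom without its removal): Ndufs1 (-0.0535), Ndufs3 (-0.0838), Ndufs7 (-0.0194), Ndufv2 (-0.0622), Sdhc (-0.0306), Sdhd (-0.0108), Uqcrfs1 (-0.0368), Cox5a (-0.0894), Cox5b (-0.0375), Cox6a1 (-0.10), Cox8a (-0.0711), Atp5a1 (-0.0342) and Atp5b (-0.0338). The median of all genes tested also moved in that setting, to -0.0822 from 0.00933 by limma-voom without the removal. Of the subunits that changed sign, Ndufs3, Cox5a and Cox6a1 lay below that median of all genes and the others above it. The causes were not tested, and none of these subunits was called.

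Replicate numbers 1 to 3 occur in both groups. Same-numbered libraries correlated at 0.248, -0.054 and 0.245 in their deviations from the group means, and differently numbered ones at -0.328 to 0.178. The deviations were not adjusted for batch, and the replicates 2 of DOX and PBS are of different batches. These values therefore cannot decide whether the numbers pair the libraries. With the replicate block in place of batch, the subunits' median was 0.13, 73 lay above 0 and 0 genes were called. Ndufs1 (-0.0444), Sdhd (-0.0744) and Atp5b (-0.0246) were below 0 there.

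For the interaction, DESeq2 called 269 genes, and leaving out single libraries called 0 to 58 genes (58 without DOX replicate 2, 10 without DOX replicate 1). It could not be fitted without PBS replicate 1, the lone PBS library of batch 1. For the batch term, DESeq2 called 518 genes, counting DOX replicate 1 as PBS left 5, the collagen term left 0, and leaving out single libraries gave 0 genes (without PBS replicate 1) to 938 (without DOX replicate 2), and 0 to 13 subunits (13 without DOX replicate 2). Without DOX replicate 2, batch 1 keeps only the replicates 1 of both groups. Depth was not varied, and the rare isoforms have the fewest counts and the widest errors.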
